A study of Arabidopsis thaliana with 8 samples.

Results

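Of the 3439 features on the array, 692 are paired with exactly 1 gene in the platform annotation, and 6 of these belong to the antenna, the subunits of the photosystems and the assembly factors of photosystem II. They are LHB1B2 (AT2G34420), PSBW (AT2G30570), PSBY (AT1G67740), PSAN (AT5G64040), PSB27 (AT1G03600) and LPA19 (AT1G05385). Each has 1 feature, chosen by gene name and not by its values. Total RNA came from wild-type Arabidopsis thaliana of ecotype Landsberg, a laboratory strain, in 2 groups of 4 samples. One group was kept for 48 h under red light at 20 µE and the other for 48 h under white light at 20 µE, and the labels number the samples of each group from 1 to 4. The labels give no tissue, age or earlier growth light, and they leave unsaid if each sample is its own batch of plants. The p-values therefore cover the spread among these 8 columns alone, part or all of which may be technical.

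Photosystem II splits water and photosystem I reduces ferredoxin, and both are large pigment-protein complexes of the thylakoid membrane in the chloroplast. A peripheral antenna of light-harvesting proteins, most of them trimers of LHCII around photosystem II, feeds excitation energy into them. The core subunits of both photosystems are encoded in the chloroplast, while the antenna proteins, many small subunits and the assembly factors are encoded in the nucleus, and light regulates many of these nuclear genes through photoreceptors such as phytochrome.

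Summed intensity ran from 2549 to 3196 in the 4 red samples and from 1691 to 2373 in the 4 white samples, in the arbitrary units of the deposited table. Precision is limited by having 4 arrays a group, and the main test takes these as independent. The scale ends at 100, where 2 to 4 features lay in each red sample and 0 in each white sample. Samples 1 and 2 of a group resembled each other, as did samples 3 and 4, with Spearman correlations over all features of 0.910 to 0.947 within these sets and 0.777 to 0.825 between the sets of a group, so the results below are also given set by set. Differences were tested after quantile normalization, which gives all arrays the same distribution of values, and they depend on that step. In bulk RNA, fewer cells of a type and less RNA per cell cannot be told apart.

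Of the 6 genes, PSBW was the only one that passed the test between red and white light, with a rise in red light that was fitted as 3.0-fold and not measured in full, since 2 of its 4 red values were at the ceiling. LPA19 was lower in red light in 4 of 4 same-numbered samples and just missed the threshold, and PSB27, its relative, was also lower in 4 of 4. LHB1B2 and PSBY had higher deposited intensities in red light in 4 of 4 same-numbered samples without passing. After normalization PSBY was still higher in 4 of 4, as were 23.4% of all features, and LHB1B2 in 2 of 4. On the deposited scale that share was not computed. The red arrays had the higher summed intensities but, number by number, the lower medians (0.202 to 0.257 against 0.237 to 0.289). They also had more features at 0 (573 to 604 against 393 to 468). PSAN was lower in red light in samples 1 and 2 and higher in samples 3 and 4. Thus 1 of 6 genes was called higher, or 16.7%, and 0 of 6 lower by limma at an adjusted p under 0.05. At the same adjusted p, 22.0% of all 3032 features tested were called, 11.0% higher and 10.9% lower, so the share of calls among these genes was no larger than that of the array as a whole. At an unadjusted p under 0.05 limma gave 1 of 6 higher and 1 of 6 lower, PSBW and LPA19, against 18.6% and 18.1% of all features. The median log2 difference was -0.02 over the 6 genes and -0.03 over all features tested, after quantile normalization. On the deposited scale these medians were 0.36 and -0.17. With arrays centred on the median of their values above 0 they were 0.37 and -0.15. Centring on the median of all values gave 0.56 and 0.01. The gap between the 6 genes and all features was not tested.

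**Figure D1:**
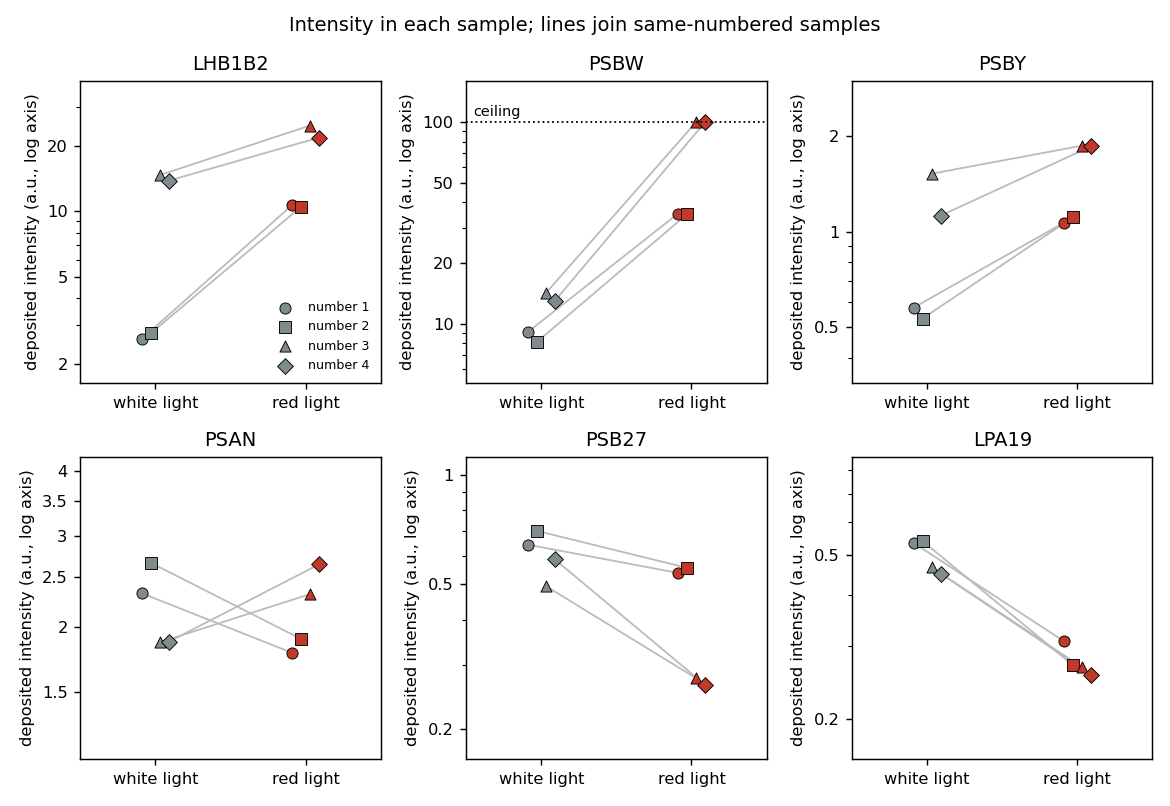
Deposited intensity (arbitrary units, log axis) of the 6 genes in each of the 4 white and 4 red samples, with lines that join same-numbered samples and marker shapes for the sample number. The red and white samples do not overlap for PSBW and LPA19, and 2 of the red PSBW values lie at the ceiling of 100.

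LHB1B2, also called LHCB1.5, encodes an LHCB1 protein, a component of the LHCII trimers of photosystem II. Its intensity was 10.7, 10.5, 24.8 and 21.8 in red samples 1 to 4 and 2.61, 2.76, 14.7 and 13.8 in white samples 1 to 4. The groups overlapped, since the white samples 3 and 4 were brighter than the red samples 1 and 2. The means were 16.96 ± 7.44 under red and 8.48 ± 6.70 under white light (SD, n = 4 each). The fitted log2 difference was 0.53 ± 0.56 (SE; 95% interval -0.73 to 1.79; limma adjusted p = 0.528). Without normalization it was 1.34 (limma adjusted p = 0.174).

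The size of that difference followed the sample number. LHB1B2 was 4.1-fold and 3.80-fold brighter in red than in white light for numbers 1 and 2, and 1.69-fold and 1.58-fold for numbers 3 and 4. Within white light, samples 3 and 4 averaged 5.31 times the intensity of samples 1 and 2, a step larger than any of the 4 red over white ratios. Within red light the corresponding step was 2.2-fold. After normalization the log2 differences were 1.15 and 1.08 for numbers 1 and 2 but -0.12 and 0.00 for numbers 3 and 4. In the latter arrays its place among all features was nearly the same, 20th from the top in both red samples and 18th and 20th in the white samples.

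PSBW encodes a small membrane subunit of photosystem II that stabilizes its supercomplexes with LHCII. Its intensity was 35.2, 35.0, 100 and 100 in red samples 1 to 4 and 9.11, 8.13, 14.2 and 13.0 in white samples 1 to 4. Every red sample was brighter than every white sample, and red samples 3 and 4 lay at the ceiling, so their levels are lower bounds. The means were 67.5 ± 37.5 and 11.1 ± 2.95 (SD, n = 4 each), a ratio of at least 6.08, and the red mean and SD include the 2 values at the ceiling. The fitted log2 difference was 1.58 ± 0.39 (SE; 95% interval 0.69 to 2.48; limma adjusted p = 0.0222).

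By sample number, the deposited intensity of PSBW was 3.87-fold and 4.3-fold higher in red light for numbers 1 and 2, and at least 7.04-fold and 7.69-fold higher for numbers 3 and 4. After normalization the log2 differences were 0.84, 0.95, 2.27 and 2.28 for numbers 1 to 4, of which the latter 2 rest on red values at the ceiling. The log2 difference was 2.45 on the deposited scale and 2.46 with arrays centred on the median of their values above 0, both called in limma. The call was lost without red sample 3 (adjusted p = 0.0537), red sample 4 (0.0552), white sample 1 (0.0627), white sample 2 (0.0559) or white sample 4 (0.0508). With samples 1 and 2, and samples 3 and 4, of a group as a random block, its limma adjusted p was 0.1003, and 0.0299 when that block was fitted on the deposited scale. In the limma fit with this block after quantile normalization, 0 of the 6 genes passed, against 3.76% of all features. At an unadjusted p under 0.05 it gave 2 of 6, PSBW and LPA19. The share of all features at that p was not computed.

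PSBY, which encodes a precursor cut into a pair of small photosystem II proteins, had intensities of 1.07, 1.11, 1.87 and 1.86 in red samples 1 to 4. White samples 1 to 4 read 0.576, 0.532, 1.52 and 1.12. White samples 3 and 4 were brighter than red samples 1 and 2, so the groups overlapped, although red exceeded white at each sample number. The red over white ratios were 1.85, 2.09, 1.23 and 1.65 for numbers 1 to 4. The fitted log2 difference was 0.45 ± 0.26 (SE; 95% interval -0.13 to 1.04; limma adjusted p = 0.232). Without normalization it was 0.74 (adjusted p = 0.205), and it was 0.94 with arrays centred on the median of all values (adjusted p = 0.0531).

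PSAN encodes a small subunit on the lumenal side of photosystem I, where plastocyanin docks. Red samples 1 to 4 read 1.79, 1.90, 2.32 and 2.64, and white samples 1 to 4 read 2.33, 2.66, 1.87 and 1.88. Samples 1 and 2 were the brighter ones in white light and the dimmer ones in red light, and the group means were alike, 2.16 ± 0.394 and 2.18 ± 0.383 (SD, n = 4 each). Red over white was 0.768 and 0.714 for numbers 1 and 2 and 1.24 and 1.41 for numbers 3 and 4. The fitted log2 difference was -0.50 ± 0.31 (SE; 95% interval -1.21 to 0.21; limma adjusted p = 0.275). It was -0.02 on the deposited scale, and 0.18 with the median of all values.

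The remaining genes encode homologs of bacterial Psb27, a lumenal protein that binds photosystem II while it is being assembled or repaired. In Arabidopsis, PSB27 acts in the repair of photosystem II after light damage, and LPA19 assists the processing of the precursor of the D1 protein at its C terminus. PSB27 read 0.538, 0.556, 0.276 and 0.265 in red samples 1 to 4 and 0.644, 0.703, 0.495 and 0.586 in white samples 1 to 4. Red was below white at each number, but red samples 1 and 2 lay within the white range. The red over white ratios were 0.836 and 0.791 for numbers 1 and 2 and 0.558 and 0.451 for numbers 3 and 4. The fitted log2 difference was -0.74 ± 0.42 (SE; 95% interval -1.69 to 0.22; limma adjusted p = 0.234).

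LPA19 read 0.309, 0.270, 0.267 and 0.256 in red samples 1 to 4 and 0.534, 0.539, 0.466 and 0.450 in white samples 1 to 4. Every red sample lay below every white sample, and the means were 0.276 ± 0.0228 and 0.497 ± 0.0458 (SD, n = 4 each). Its red over white ratios were 0.578, 0.501, 0.573 and 0.570 for numbers 1 to 4, the narrowest range of the 6 genes on the deposited scale. The fitted log2 difference was -0.88 ± 0.28 (SE; 95% interval -1.51 to -0.25; limma adjusted p = 0.0519). Without normalization it was -0.85 (adjusted p = 0.0106), and centring on the median of values above 0 gave -0.84 (adjusted p = 0.0355). With the random block of similar samples LPA19 did not pass on any of these scales (limma adjusted p = 0.215 after quantile normalization, 0.134 as deposited and 0.184 with that centring). Those scales moved the median of all tested features to -0.17 and -0.15. Relative to that median the log2 differences on the deposited scale were -0.68 for LPA19, -0.47 for PSB27, 0.16 for PSAN, 0.92 for PSBY, 1.52 for LHB1B2 and 2.63 for PSBW.

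**Figure D2:**
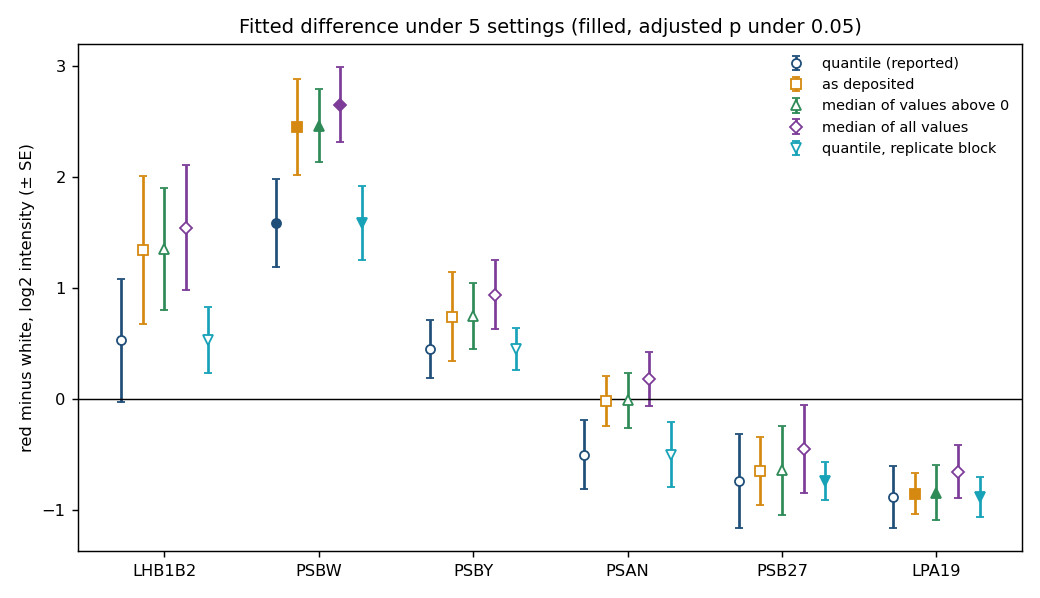
Fitted red minus white difference in log2 intensity (vertical axis) for the 6 genes under 5 settings, with bars of 1 SE and filled markers where the limma adjusted p was under 0.05. LHB1B2, PSBW and PSBY lie above 0 and PSB27 and LPA19 lie below 0 in all 5 settings, while PSAN runs from -0.50 to 0.18.

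The deviations of same-numbered red and white samples from their group means went together, so the sample number was also fitted as a block. In that fit PSB27 (limma adjusted p = 0.0321) and LPA19 (adjusted p = 0.0228) fell, with the same log2 differences as above, and PSBW rose (adjusted p = 0.0250). That made 3 of 6 genes, where the block called 26.0% of all features. Fits with the number as a block take the 4 numbers as independent, although samples 1 and 2, and samples 3 and 4, resembled each other. On the deposited scale and without the block, PSBW and LPA19 passed, 2 of 6 genes against 25.8% of all features. With arrays centred on the median of values above 0 the count was also 2 of 6, against 26.4%. When the number was a block on those scales, PSB27 did not pass (limma adjusted p = 0.0773 as deposited and 0.0796 with that centring). LHB1B2, PSBW, PSBY and LPA19 then passed on both, 4 of 6 genes against 32.5% and 32.0% of all features. Samples 1 and 2 fitted by themselves gave calls for 6 of 6 genes against 41.8% of all features, and samples 3 and 4 for 3 of 6 against 38.8%, by tests that rest on the spread between similar samples. Deposited red and white intensities did not overlap for 2 of the 6 genes, PSBW and LPA19, or 33.3%, which is near the 31.5% of all tested features. After normalization PSBW and PSBY were higher in red light at all 4 numbers, and 23.4% of all features were. PSB27 and LPA19 were lower at all 4, as were 24.5% of all features.

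**Figure D3:**
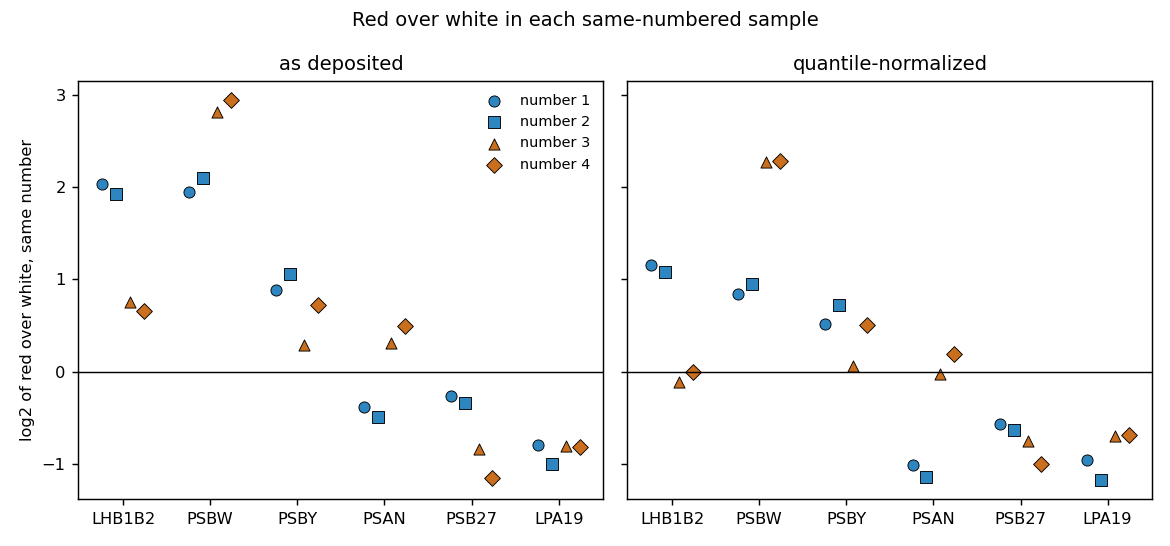
Log2 of red over white in each same-numbered sample (vertical axis) for the 6 genes, as deposited on the left and after quantile normalization on the right, with numbers 1 and 2 in blue and numbers 3 and 4 in orange. Numbers 1 and 2 lie apart from numbers 3 and 4 in both panels for every gene but LPA19, narrowly for PSBY. For LPA19 they do so in the right panel alone. PSBW and PSBY lie above 0, and PSB27 and LPA19 below 0, at all 4 numbers in both panels.

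The 6 genes also differed in how samples 3 and 4 stood to samples 1 and 2 of the same light. In white light the mean of samples 3 and 4 over that of samples 1 and 2 was 5.31 for LHB1B2, 2.39 for PSBY and 1.58 for PSBW. It was 0.752 for PSAN, 0.803 for PSB27 and 0.854 for LPA19. In red light the same ratios were 2.2 for LHB1B2, 1.71 for PSBY, at least 2.85 for PSBW, 1.35 for PSAN, 0.494 for PSB27 and 0.905 for LPA19. The antenna gene and both photosystem II subunits were thus brighter in samples 3 and 4 in both lights and both assembly factors dimmer, while PSAN stood below 1 in white light and above 1 in red light. The median intensity of the array was 0.237 to 0.238 in white samples 1 and 2 and 0.288 to 0.289 in white samples 3 and 4. PSAN, PSB27 and LPA19 went the other way in white light. The labels do not describe what sets these samples apart, and its part in the results was not tested.

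A ratio of 2 genes within 1 sample does not move with a linear scaling of the array, although its level has no meaning across probes. Of the 15 pairs among the 6 genes, the red and white ratios did not overlap for 7, or 46.7%, and all 7 hold PSBW or LPA19. Over all 141778 pairs of the 533 tested 1-gene features above 0 in every sample, 33.9% did not overlap. These pairs share genes and are not independent. The intensity of PSBW relative to LPA19 was 6.69, 8.57, 12.3 and 13.5 times higher in red than in white light for numbers 1 to 4, the values for numbers 3 and 4 being lower bounds. PSBW relative to PSAN was 5.04, 6.02, 5.69 and 5.46 times higher, again with the latter 2 as lower bounds. PSBY relative to LPA19 was 3.2, 4.16, 2.14 and 2.90 times higher.

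PSB27 relative to LPA19 was 1.45 and 1.58 times higher in red light for numbers 1 and 2 but 0.973 and 0.792 times as high for numbers 3 and 4, so the pair of Psb27 homologs did not keep a fixed ratio. LHB1B2 relative to PSAN was higher in red light at all 4 numbers but by unequal amounts, 5.34 and 5.33 times for numbers 1 and 2 and 1.36 and 1.12 times for numbers 3 and 4. Of the 15 pairs, 10 went 1 way at all 4 numbers, a count for which the share over all pairs was not computed. After quantile normalization 4 of the 15 pairs did not overlap, a smaller share than the 32.1% of all pairs above. Each of the 4 holds PSBW, for which 2 of the 4 red values were at the ceiling.

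**Figure D4:**
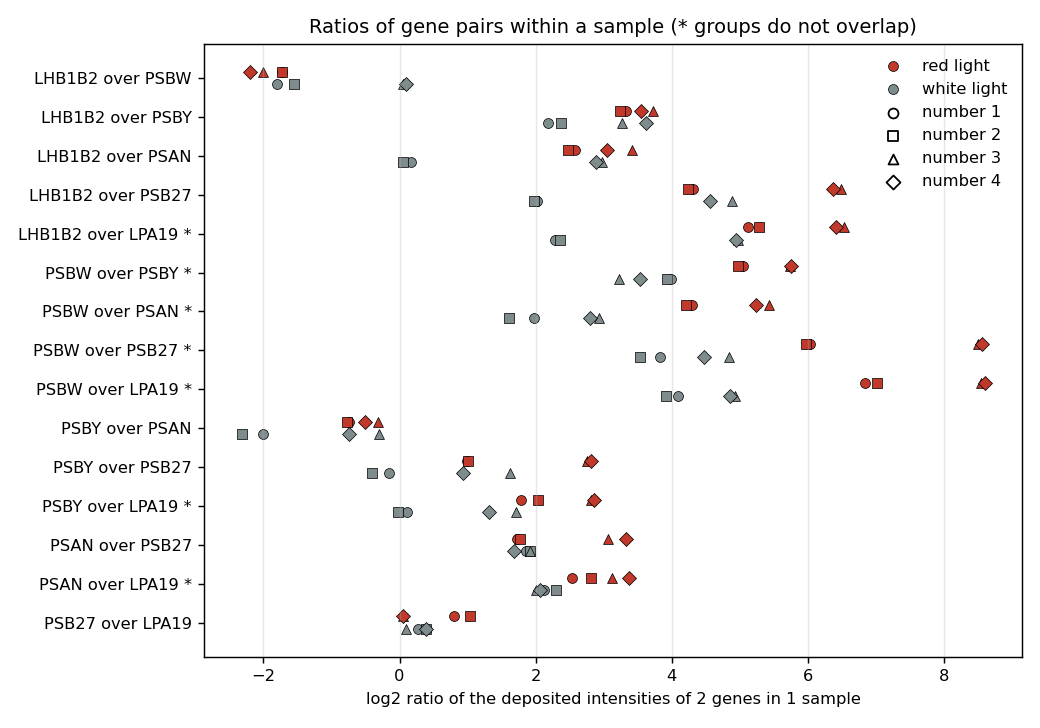
Log2 ratio of the deposited intensities of 2 genes in the same sample (horizontal axis) for the 15 pairs of the 6 genes, with 4 red and 4 white samples each, marker shapes for the sample number and an asterisk where the groups do not overlap. All 7 pairs with an asterisk contain PSBW or LPA19, and only the shift between red and white carries information, not the position on the axis.

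The genes with the most similar pattern were sought among 425 other 1-gene features above the floor in all samples, by the Pearson correlation of normalized log2 intensity over the 8 samples. The light difference is part of that pattern, so the direction of the genes it picks is a description and carries no test here. These values describe the pattern over 8 samples that share the step between samples 1 and 2 and samples 3 and 4. AT3G26630 followed LHB1B2 most closely (r = 0.994), and AT3G46950 (0.973) and AT1G01080 (0.968) came after it. For PSBW these were MAMI (0.987), AT1G30700 (0.959) and AT3G16310 (0.953), with red minus white log2 differences of 1.38, 0.95 and 1.64. For PSBY they were AT5G26850 (0.974), CCB3 (0.954) and AT1G76450 (0.950).

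PSAN was followed by AT2G34050 (0.985), AT1G51080 (0.961) and AT1G17744 (0.941), which had log2 differences of -0.82, -1.17 and -0.94. AT5G49120 (0.975), LAS (0.959), a GRAS regulator of axillary shoots, and AT1G15410 (0.952) came closest to PSB27. For LPA19 they were AT5G19050 (0.986), AT2G35490 (0.985) and GH9B12 (0.982), a glycosyl hydrolase gene, with log2 differences of -1.36, -1.11 and -1.62.

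Lists of 145 genes of the light reactions, from the photosystems to the NDH complex, had 10 members with a feature of their own, and 4 of these lie outside the 6 genes. Of the 10, 1 rose, PSBW, and 0 fell in limma, and at an unadjusted p under 0.05 it was 1 higher and 1 lower, PSBW and LPA19. The share called was 1 in 10 at the adjusted p, against 22.0% over all features. CCB3, a factor that attaches a haem to the cytochrome b6f complex, had intensities of 0.157 to 0.326 in red and 0.168 to 0.303 in white light and a log2 difference of 0.37 ± 0.26 (SE, limma adjusted p = 0.343). PIFI, a factor of chlororespiration, had 0.371 to 0.400 in red and 0.360 to 0.517 in white light and -0.10 ± 0.21 (adjusted p = 0.760). NdhS, the ferredoxin-binding subunit of the NDH complex, had 5.52 to 11.8 in red and 3.08 to 8.53 in white light and -0.08 ± 0.32 (adjusted p = 0.889), and without normalization 0.72 (adjusted p = 0.271). NdhN, another NDH subunit, lay at or below the floor in 7 of 8 samples.

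Among the listed names that could be matched, no photosystem I assembly factor, ATP synthase subunit or photosystem kinase had a feature of its own. Nor did any of the 24 matched markers of roots, flowers, seeds or ageing leaves. For photosystem I assembly factors 4 listed names had no match, and for ATP synthase also 4, so the array may still hold them. These counts cover matched names, since 25 listed names of the light reactions and 1 marker had no match in the gene table. In addition, 6 features shared by several genes hold a listed gene of the light reactions and were not named. The share of other tissues in the samples therefore has no measure here.

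**Figure D5:**
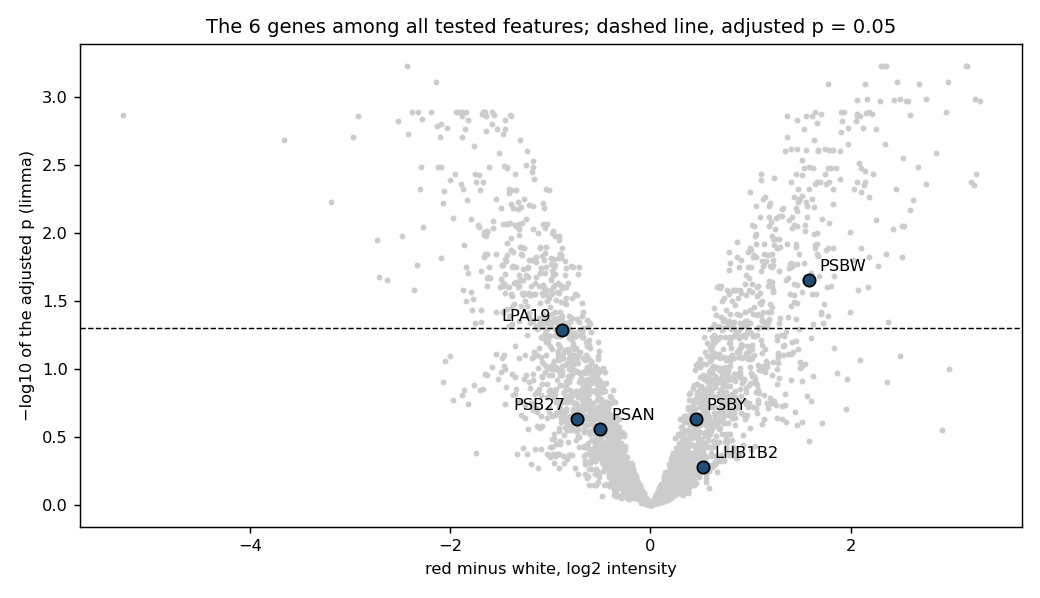
Log2 difference between red and white light (horizontal axis) against −log10 of the limma adjusted p (vertical axis) for the 3032 tested features in grey and the 6 genes in blue, with a dashed line at an adjusted p of 0.05. PSBW alone of the 6 lies above the line, and LPA19 lies just below it.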

How the data were processed

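The deposited values are intensities on a linear scale, 1 column per sample, with no value below 0 and a ceiling at 100. What the authors did before they deposited these intensities (background correction, scaling, filters) and on which genome build is not given in the sources used here. Features were named through the platform annotation, which is old, and the gene names of the TAIR10.1 table. No sequences are shown. The 6 genes, the lists and the processing were chosen with earlier results of these data known.

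Arrays were quantile-normalized, values under a common floor were raised to it (0.0716, the highest over arrays of the 5th percentile of values above 0), and 407 features at the floor on all 8 arrays were left out. Red minus white log2 differences were fitted over all features with limma 3.58.1 in R 4.3.3, two-sided, with Benjamini-Hochberg adjustment over 3032 features. The 6 genes lay above the floor in all 8 samples. The text names these 6, every list member with its own feature, and the 3 features of 1 gene most correlated with each of the 6. Words such as photosystem or thylakoid were searched in the synonyms of the gene table and added no gene. Synonyms are not descriptions, so other genes of the light reactions may have a feature that is not named here. Sums and ratios within a sample use the deposited intensities.

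Same-numbered red and white samples deviated together from their group means (correlations across features 0.239 to 0.320 in all 4 pairs, against -0.206 to 0.107 for other red and white pairs). The labels state no such tie. Fits with the number as a block were therefore added. Alternatives covered array scaling, low values, filters, variance models, the similarity of samples 1 and 2 and of 3 and 4, and leaving out each sample. The fit was also run on simulated data in which the arrays were drawn independently. The real samples resembled each other in sets, so that run does not measure false calls in these data. Plots were drawn with matplotlib 3.10.9 in Python 3.11.15.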

Additional observations from a re-analysis of the deposited data

Results flagged for a closer look

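PSAN stood out because its red over white difference had opposite signs in samples 1 and 2 and in samples 3 and 4 on the deposited scale. The log2 difference in samples 1 and 2 was lower than that in samples 3 and 4 by 0.83 (value -0.835). The difference between these sets was not tested. After normalization the sign at number 3 was also negative (-0.02), and number 4 stood at 0.19. In none of the 12 groups of 4 normalized values did 1 sample stand far from the other 3.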

How the results depend on the processing

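Values here are red minus white log2 differences from limma. PSBW and PSBY stayed above 0 and PSB27 and LPA19 below 0 in every alternative run that could be fitted. PSBW lost its call on within-array ranks (0.0066), where it lies near the top of every array, and at 1.58 with the random block of similar samples or with similar samples averaged (adjusted p = 0.299). It ran from 1.32 to 1.87 without 1 sample, with 3 of 8 fits called, and it has no value where features at the ceiling are left out. LPA19 passed as deposited (-0.85, also with the replicate block), with median centring (-0.84, also with the replicate block), with the higher floor, the floor per array, the filter on dim features or the replicate block (each -0.88), and with array weights (-0.88). It ran from -1.02 to -0.73 without 1 sample and passed without white sample 3 or 4.

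PSB27 passed with the replicate block after quantile normalization (-0.74) but not as deposited (limma adjusted p = 0.0773) or with median centring (0.0796). With the replicate block on these scales, LHB1B2 passed at 1.34 (as deposited) and 1.35 (median centring), and PSBY at 0.74 and 0.75. Within samples 1 and 2 alone all 6 genes passed, where 41.8% of all features did, by tests that rest on the spread between similar samples: LHB1B2 at 1.12, PSBY at 0.62, PSAN at -1.08, PSB27 at -0.60, LPA19 at -1.07 and PSBW at 0.89. Within samples 3 and 4 alone LPA19 (-0.69), PSB27 (-0.87) and PSBW (2.27) passed, against 38.8% of all features, while LHB1B2 (-0.058) and PSAN (0.081) turned sign. PSAN also turned sign with the median of all values (0.18). NdhS turned sign as deposited (0.72), with median centring (0.73), with the median of all values (0.92) and in 4 fits without 1 sample (range -0.24 to 0.10). PIFI turned sign in samples 1 and 2 alone (0.094) and with the median of all values (0.089). The causes were not tested.

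Over all features, 334 were called higher and 332 lower. The counts were 290 and 501 as deposited, 325 and 479 with median centring, 868 and 386 with the floor per array, 71 and 43 with the random block, and 0 and 0 with similar samples averaged (458 with an unadjusted p under 0.05). Samples 1 and 2 by themselves gave 632 and 636, samples 3 and 4 gave 567 and 609, and the counts were 239 to 293 higher and 214 to 320 lower without 1 sample, the lowest without white sample 1. With the replicate block they were 401 and 596 as deposited and 410 and 564 with median centring, and with the random block 91 and 82, and 101 and 71. Pairs of genes without overlap of their ratios numbered 4 after normalization, against 7. Fits that join a scaling with a block, and the median of all values, were added after seeing the data.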
